A study of Mus musculus with 6 samples.

Results

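Gad1, Gad2, Sst and Pvalb, 4 genes of inhibitory neurons, were followed in brain RNA of rat offspring. They were taken by their rat Ensembl gene identifiers from a table of 32623 genes: ENSRNOG00000000007 for Gad1, ENSRNOG00000018200 for Gad2, ENSRNOG00000001837 for Sst and ENSRNOG00000006471 for Pvalb. All 4 identifiers were found, and all 4 genes passed the filter on low counts that left 16776 genes for testing. The table gives no gene symbols, so the pairing of these identifiers with their symbols rests on the list used to choose them. The question was whether these genes differed between the offspring of mothers on a high-fat diet and those of mothers on a normal diet.

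The MHFD group (maternal high-fat diet) held 3 offspring whose dams ate high-fat chow from before mating until the end of lactation. The MND group (maternal normal diet) held 3 offspring whose dams ate normal chow over the same stages. Brains were collected at postnatal day 21, the last day of lactation, and 1 library was sequenced per animal. The labels name the mouse strain C57BL/6, whereas the study describes Sprague-Dawley rats and all identifiers are those of the rat. The sex and the litter of the sequenced animals, and the parts of the brain taken, are not given in the sources used here. The p-values treat the 3 animals of a group as independent, which littermates would not be.

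Neurons that release gamma-aminobutyric acid (GABA) are the main inhibitory cells of the brain. GABA is made from glutamate by glutamate decarboxylase, which exists as the products of Gad1 (GAD67) and Gad2 (GAD65). GAD67 is spread through the neuron and makes much of the basal GABA, whereas GAD65 is found mainly at nerve terminals, where it supplies GABA for synaptic release. Sst encodes the neuropeptide somatostatin, and Pvalb encodes the calcium-binding protein parvalbumin. Both mark large classes of cortical interneurons, and Pvalb is also strong in Purkinje cells of the cerebellum. Parvalbumin expression in the rodent brain builds up during the weeks around weaning.

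The total count per library lay between 43679373 and 61385917. Each library held at least 9482 counts of Gad1, at least 11448 of Gad2, at least 2892 of Sst and at least 403 of Pvalb. In every library, genes at 4 counts outnumbered the mean of those at 3 and at 5 by a factor of 2.19 to 2.63, so counts may exceed the number of fragments. Levels are given as CPM (the count scaled to the size of its library) after TMM scaling, a correction for differences in library composition. They are not divided by gene length, so levels were compared between libraries and not between genes. In bulk brain RNA, fewer cells of a type and less RNA per cell cannot be told apart. Markers of other cell types could not be looked up by symbol and were not analysed here.

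Among the 4 genes, Gad2 alone reached an unadjusted p under 0.05 between the groups, and none reached an adjusted p under 0.05. Without MHFD replicate 1, Pvalb also reached an unadjusted p under 0.05, which made 2 of the 4; in that fit 17% of all 17120 tested genes did so. Gad2 was higher in the MHFD group. Gad1 and Sst overlapped between the groups. Pvalb was low in 2 of the 3 MHFD libraries and at the level of the MND group in the third. For comparison, 8.68% of all 16776 tested genes had an unadjusted p under 0.05 in edgeR's quasi-likelihood test (4.9% higher with MHFD, 3.78% lower). An adjusted p under 0.05 was reached by 1 gene of the whole table, or 0.00596%, and it is none of the 4. That number varied with the test, from 0 with limma-voom (1424 at an unadjusted p under 0.05) to 198 with DESeq2's Wald test. The median log2 fold change was 0.18 over the 4 genes and 0.0023 over all tested genes.

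**Figure D1:**
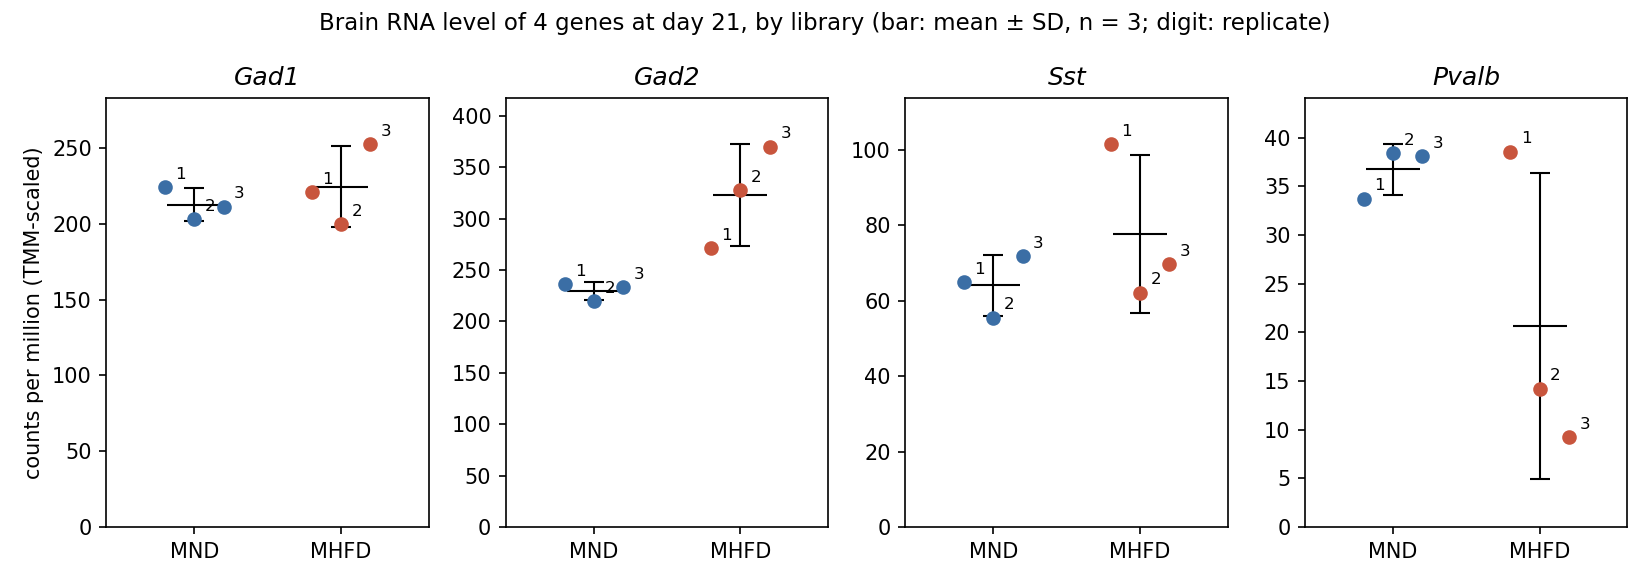
TMM-scaled CPM (vertical axis, from 0, a separate scale for each gene) of Gad1, Gad2, Sst and Pvalb in the 3 MND and 3 MHFD libraries. Points are libraries numbered by replicate, and bars are the mean ± SD. All 3 MHFD points lie above the MND points for Gad2, and 2 of the 3 MHFD points lie far below the MND points for Pvalb.

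Gad1 was measured at 221, 199.7 and 253 CPM in MHFD replicates 1, 2 and 3. The MND replicates in the same order held 224, 203 and 211 CPM. The highest and the lowest of the 6 values both belonged to the MHFD group, so the MND values lay inside the MHFD range. The group means were 224 ± 26.7 CPM (MHFD) and 213 ± 10.7 CPM (MND; SD, n = 3 each). The log2 fold change, MHFD against MND, was 0.077 with a standard error of 0.11 and a 95% interval from -0.19 to 0.34 (adjusted p = 0.871, edgeR's quasi-likelihood test). The interval bounds the difference of Gad1 between the groups but does not show that they were equal. Without MHFD replicate 3, the log2 fold change was -0.012.

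Gad2, the gene of the terminal-enriched enzyme, was measured at 271, 328 and 370.1 CPM in MHFD replicates 1, 2 and 3. In MND replicates 1, 2 and 3 it was at 236, 219.9 and 233 CPM. Every MHFD library was above every MND library, and MHFD replicate 1 lay nearest to the MND group. Of all tested genes, 7.12% had groups that did not overlap in this direction, and 6.83% in the opposite one. Its mean was 323 ± 49.7 CPM with MHFD against 229.8 ± 8.77 CPM with MND (SD, n = 3 each), so Gad2 was 1.41-fold higher with MHFD. On the log2 scale the difference was 0.49 with a standard error of 0.13 and a 95% interval from 0.18 to 0.80.

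The unadjusted p of Gad2 was 0.0069, the 211th smallest of 16776, and its adjusted p was 0.539 (edgeR's quasi-likelihood test, adjusted by Benjamini-Hochberg). A 2-sided exact permutation test on CPM gave p = 0.1 for Gad2, which is the lowest value possible with 3 animals per group. The same exact test gave p = 0.7 for Gad1, 0.5 for Sst and 0.4 for Pvalb. The log2 fold change of Gad2 was larger in size than that of 92.8% of the 9893 genes whose mean was 10 CPM or more. With each library left out in turn, it ran from 0.39 (without MHFD replicate 3) to 0.60 (without MHFD replicate 1), and the unadjusted p stayed between 0.00071 and 0.0284 in edgeR's test. DESeq2's Wald test gave an adjusted p of 0.0495 for Gad2, in a fit where 198 of 16776 genes, or 1.18%, were under 0.05. Left-out libraries alone moved the adjusted p from 0.0716 to 0.951 in edgeR's quasi-likelihood test. Over all alternatives it ran from 0.0495 to 0.951, and only DESeq2's Wald test brought it under 0.05.

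Sst was measured at 101.6, 62.1 and 69.6 CPM in MHFD replicates 1, 2 and 3. The MND replicates in the same order held 64.8, 55.5 and 71.7 CPM. MHFD replicate 1 stood above all other libraries, 1.42-fold over the next highest, and the other MHFD libraries lay within the MND range. The means were 77.8 ± 21.0 CPM (MHFD) and 64.0 ± 8.13 CPM (MND, SD, n = 3 each). The log2 fold change was 0.28 with a standard error of 0.20 and a 95% interval from -0.19 to 0.75 (unadjusted p = 0.200, adjusted p = 0.710, edgeR's quasi-likelihood test). Without MHFD replicate 1, it was 0.040. The means of the somatostatin gene differed by less than the SD of the MHFD group and by more than that of the MND group.

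Pvalb was measured at 38.6, 14.2 and 9.21 CPM in MHFD replicates 1, 2 and 3. In MND replicates 1, 2 and 3 it was at 33.7, 38.4 and 38.1 CPM. MHFD replicate 1 and MND replicate 2 were nearly equal as the highest, and MHFD replicates 2 and 3 were the lowest, so the groups overlapped. Scaled by library size alone, MHFD replicate 1 held 38.46 CPM and MND replicate 2 held 38.52 CPM. Relative to the MND mean, Pvalb was 1.05-fold in MHFD replicate 1, whereas MHFD replicates 2 and 3 lay 2.59-fold and 3.99-fold below it. The counts of Pvalb behind the low values were 674 in MHFD replicate 2 and 403 in MHFD replicate 3. Exact Poisson intervals at the 95% level ran from 13.1 to 15.3 CPM and from 8.33 to 10.2 CPM. If each fragment added 4 counts, they ran from 12.1 to 16.5 CPM and from 7.52 to 11.2 CPM. The lowest bound in an MND library on that basis was 30.8 CPM. Counting error, which is all that these intervals cover, was therefore smaller than the gap.

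Mean Pvalb was 20.7 ± 15.7 CPM with MHFD against 36.7 ± 2.62 CPM with MND (SD, n = 3 each). The log2 fold change was -0.83 with a standard error of 0.48 and a 95% interval from -1.97 to 0.32 (unadjusted p = 0.132, adjusted p = 0.662, edgeR's quasi-likelihood test). Without MHFD replicate 1, it was -1.65, with an unadjusted p of 0.00028 and an adjusted p of 0.0633 in edgeR's test. Without MHFD replicates 2 or 3 in turn, it was -0.61 or -0.47. The size of the parvalbumin difference therefore depended on which MHFD library was left out. Its unadjusted call changed only without MHFD replicate 1. That omission also changed the whole table: 17% of tested genes had an unadjusted p under 0.05 in edgeR's test, against 8.68% with all libraries. Which of the MHFD animals is typical cannot be told from 3 animals.

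**Figure D2:**
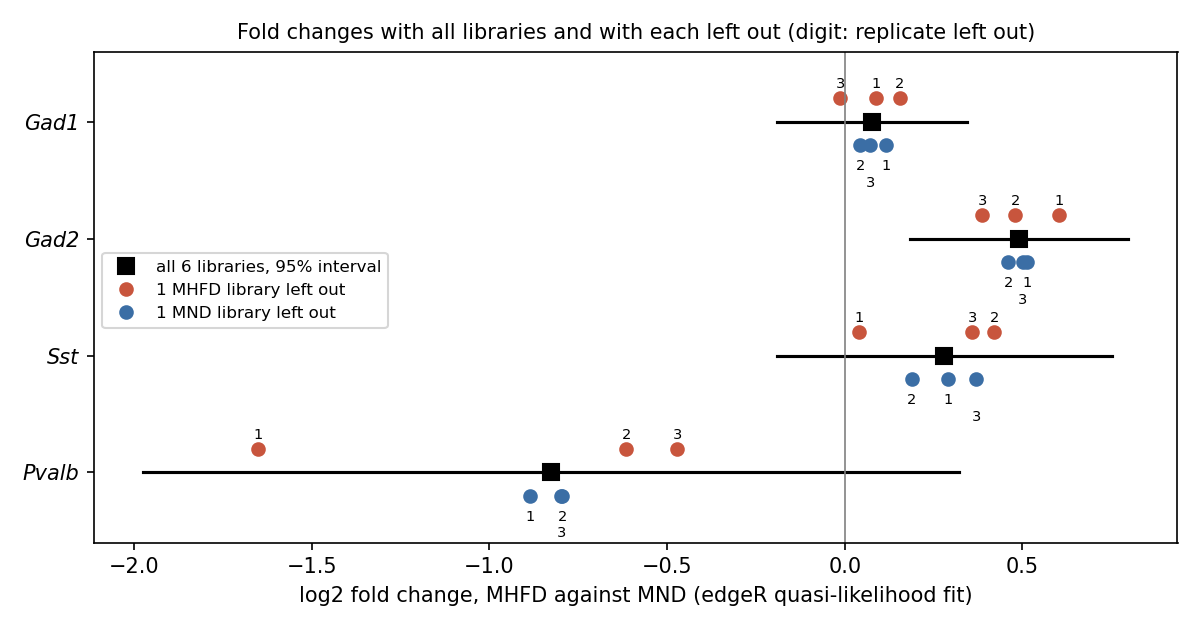
Log2 fold change of the 4 genes, MHFD against MND, from edgeR's quasi-likelihood fit (horizontal axis). Black squares and lines are the values and 95% intervals with all 6 libraries; red and blue points are the values with the numbered MHFD or MND library left out. The interval excludes 0 for Gad2 only, and the value of Pvalb moves from -0.83 to -1.65 when MHFD replicate 1 is left out.

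The spread between animals also differed among the genes. Within the MHFD group the coefficient of variation (SD over mean) was 11.9% for Gad1, 15.4% for Gad2, 26.9% for Sst and 76.1% for Pvalb. Within the MND group the coefficients were 5.02% for Gad1, 3.82% for Gad2, 12.7% for Sst and 7.12% for Pvalb. All 4 genes varied more among the MHFD animals, but the share of all genes that did so was not counted. It is therefore not read as a trait of these genes. The median over the genes at 10 CPM or more was 10.6% within MHFD against 8.98% within MND. The value of Pvalb within the MHFD group was above that of 99.6% of these genes, and the value within the MND group was above that of 37.9%. The same shares within MHFD and within MND were 57.0% and 22.8% for Gad1, 70.2% and 14.5% for Gad2, and 90.4% and 67.4% for Sst. The highest MHFD library exceeded the lowest 4.19-fold for Pvalb, 1.64-fold for Sst, 1.37-fold for Gad2 and 1.27-fold for Gad1. These are descriptions of 3 animals per group, and a difference in spread was not tested.

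Ratios of counts between genes of the same library do not depend on how libraries were scaled. The ratio of Gad2 to Gad1, the 2 decarboxylase genes, was 1.23, 1.64 and 1.47 in MHFD replicates 1, 2 and 3. In MND replicates 1, 2 and 3 it was 1.06, 1.08 and 1.10. Every MHFD library was above every MND library, and the MND libraries lay close together. The mean log2 ratio was 0.52 ± 0.21 with MHFD against 0.11 ± 0.032 with MND (SD, n = 3 each), a difference of 0.41. The ratio to Gad1 did not overlap between the groups for 11.9% of all other tested genes (3.98% higher with MHFD, 7.87% lower). This ratio uses the same Gad2 counts, and the log2 fold change of Gad1 was only 0.077. It is therefore not separate support for the difference in Gad2.

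The ratio of Sst to Gad1 was 0.460, 0.311 and 0.276 in MHFD replicates 1, 2 and 3, against 0.289, 0.274 and 0.340 in the MND replicates in the same order. These values overlapped, and MHFD replicate 1 was the highest. The ratio of Pvalb to Gad1 was 0.175, 0.0711 and 0.0365 in MHFD replicates 1, 2 and 3, against 0.151, 0.189 and 0.180 in the MND replicates in the same order. Here MHFD replicate 1 fell within the MND range and the other MHFD libraries below it. Gad1 showed no such decrease in these animals. The ratio uses the same Pvalb counts, so it is not separate support for low Pvalb in them.

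The ratio of Pvalb to Sst, the markers of the separate interneuron classes, was 0.380, 0.228 and 0.132 in MHFD replicates 1, 2 and 3. It was 0.520, 0.691 and 0.531 in MND replicates 1, 2 and 3. Every MHFD library was below every MND library. The ratio to Sst did not overlap between the groups for 14.4% of all other tested genes, and nearly all of these, 13.6%, were lower with MHFD. The mean log2 ratio was -2.15 ± 0.76 (MHFD) and -0.80 ± 0.23 (MND, SD, n = 3 each). In MHFD replicate 1 the ratio was below the MND libraries with Sst at its highest level and Pvalb not low. Purkinje cells also express Pvalb and the brain parts sampled are not given, so the ratio was not assigned to interneurons.

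**Figure D3:**
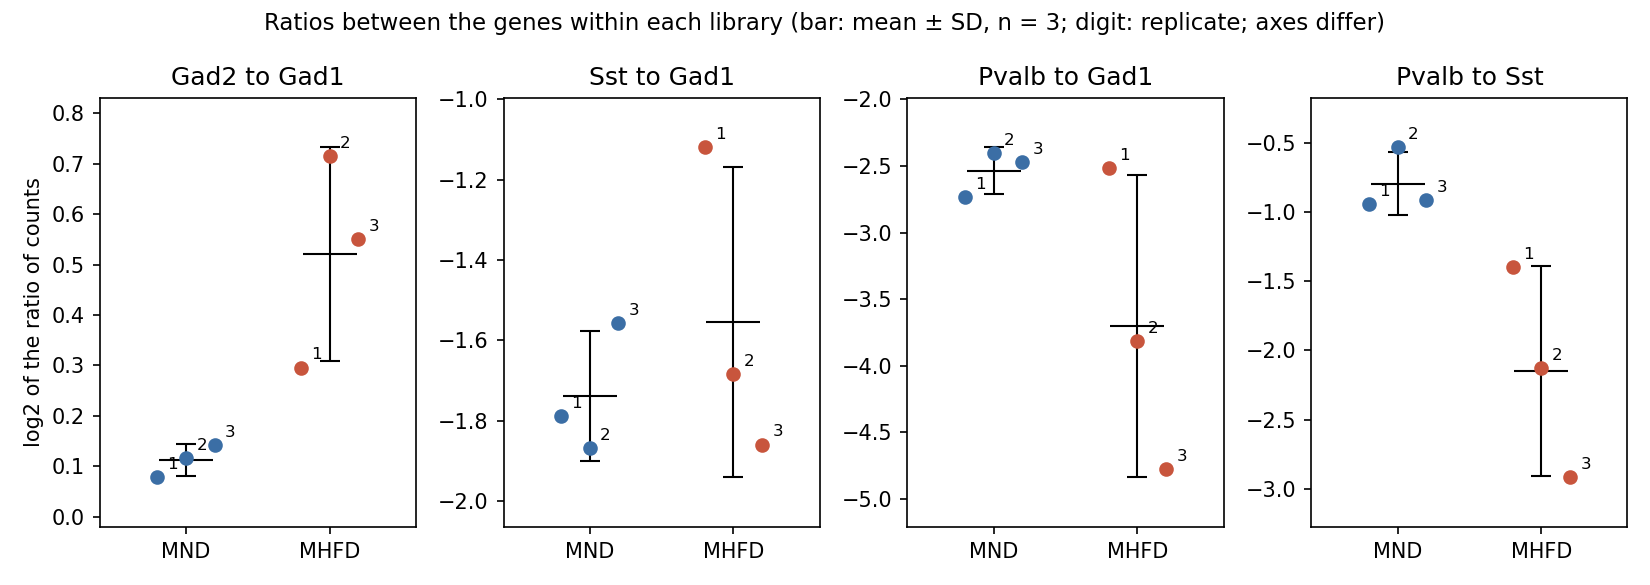
Log2 of the ratio of counts between pairs of the genes within each library (vertical axis, a separate scale for each pair), for the 3 MND and 3 MHFD libraries numbered by replicate, with mean ± SD. The groups do not overlap for Gad2 to Gad1, where MHFD is higher, and for Pvalb to Sst, where MHFD is lower, and they overlap for the other pairs.

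By measured CPM, Gad2 and Pvalb stood in opposite order among the animals of each group, but within the MND group this order lay partly within counting error. MHFD replicate 1 had the lowest Gad2 of the group, 271 CPM, and the highest Pvalb, 38.6 CPM, whereas MHFD replicate 3 had the highest Gad2, 370.1 CPM, and the lowest Pvalb, 9.21 CPM. Among the MND animals, replicate 1 had the highest Gad2 (236 CPM) and the lowest Pvalb (33.7 CPM), and replicate 2 the lowest Gad2 (219.9 CPM) and the highest Pvalb (38.4 CPM). The exact Poisson intervals of Pvalb overlapped between MND replicates 2 (36.7 to 40.1 CPM) and 3 (36.5 to 39.8 CPM). Those of Gad2 overlapped between MND replicates 1 (232.6 to 240.3 CPM) and 3 (228.9 to 237.3 CPM). Among the MHFD replicates the intervals did not overlap for either gene. The share of all genes that stood in such an opposite order was not counted. With 3 animals per group no relation was tested.

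The genes most like each of the 4 over the 6 libraries were sought among 14494 other genes whose mean was 1 CPM or more, by Pearson's r of log2 CPM. For Gad1 it was ENSRNOG00000059442 with r = 0.983, a gene at 5.61 to 6.81 CPM. For Sst it was ENSRNOG00000054984 with r = 0.986, at 1.33 to 2.06 CPM and so near the minimum of 1 CPM. For Gad2 it was ENSRNOG00000061118 with r = 0.999, a gene at 11.9, 13.9 and 15.3 CPM in MHFD replicates 1, 2 and 3. The MND replicates in the same order held 10.4, 9.62 and 10.3 CPM. For Pvalb it was ENSRNOG00000014330 with r = 0.997, which ranged from 48.4 to 64.4 CPM and so varied far less than Pvalb itself. An r above 0.95 was found for 11 genes with Gad1, 146 with Gad2, 13 with Sst and 241 with Pvalb. With 6 libraries and so many candidates these values are descriptions only, and all genes share the scaling factor and the group of each library.

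**Figure D4:**
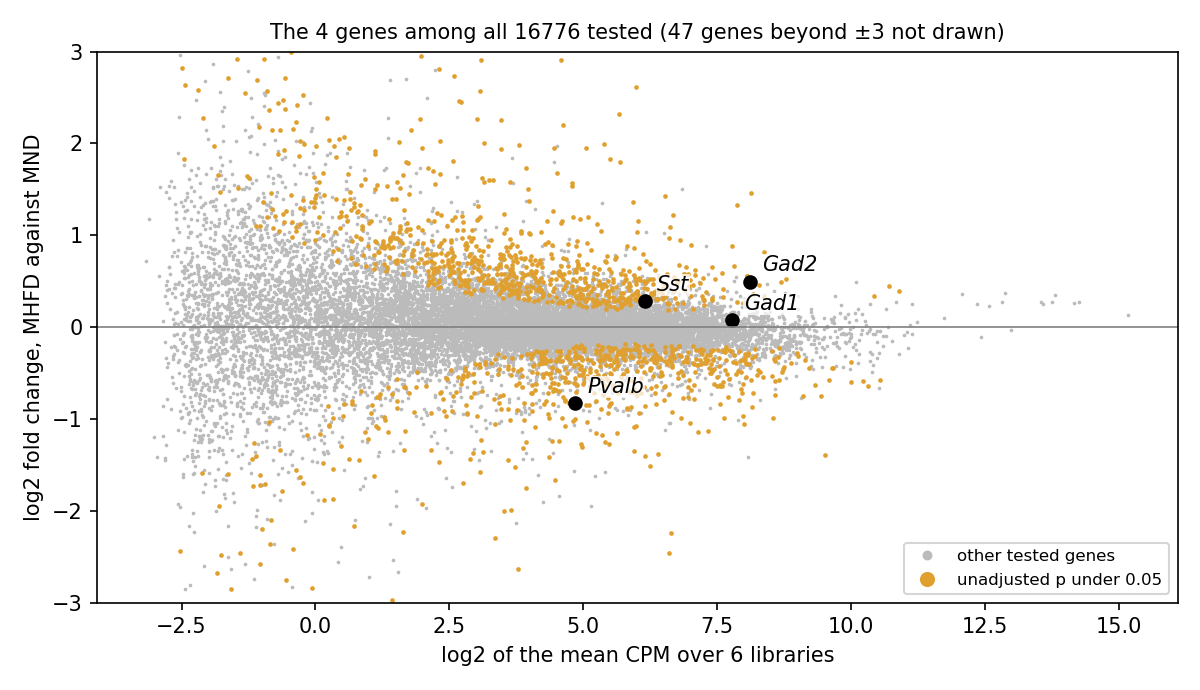
Log2 fold change, MHFD against MND (vertical axis), against the log2 of the mean CPM over the 6 libraries (horizontal axis) for the 16776 tested genes. Orange points are genes with an unadjusted p under 0.05 and black points are the 4 genes; 47 genes beyond ±3 are not drawn. Of the 4 genes, Gad2 lies above the dense band of genes of its level and Pvalb below it, Sst near its upper edge and Gad1 inside it.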

How the data were processed

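Brain RNA of 3 MHFD and 3 MND offspring at day 21 was analysed, 1 library per animal, grouped by the sample titles. The authors deposited whole counts per gene without normalization; sequencing was done by a service company, and the counting program and the rat annotation are not given in the sources used here. The submitters' processing notes name Bowtie and mm10, a mouse build, although all 32623 identifiers are those of the rat; 0 of them matched the mouse tables at hand. The planned lists of GABA pathway genes and cell type markers, which need symbols, were therefore not run, and no sequence or position is given.

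Counts were filtered with filterByExpr (minimum count 10, minimum total 15; 16776 genes kept), scaled by TMM and tested with the quasi-likelihood test of edgeR 4.0.16 in R 4.3.3, with the diet as the only term and Benjamini-Hochberg adjustment over all tested genes. The programs were tested on simulated data. Each standard error was obtained from the F statistic (log2 fold change over its root), and log2 CPM used a prior count of 2. Named were the 4 genes and, for each, the gene of the most similar pattern. The genes, lists and tests were chosen with earlier results of these data known. The libraries within a group differed by far more than sampling noise (chi-square per gene at least 31.2), so each was counted as 1 replicate. Pairs with MHFD replicate 1 gave 101 and 143, against 45.4 for MHFD replicates 2 and 3. Pairs with MND replicate 3 gave 101 and 120, against 31.2 for MND replicates 1 and 2. Alternatives were other normalizations, DESeq2 1.42.0, the likelihood-ratio test, limma-voom (limma 3.58.1), other filters, counts divided by 4, a replicate block and the omission of each library in turn.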

Additional observations from a re-analysis of the deposited data

How the results depend on the processing

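The fold change of Gad2 kept its direction and an unadjusted p under 0.05 in all 16 alternatives, with log2 values from 0.39 to 0.60. Sst and Pvalb kept their direction in all 16 and Gad1 in 15. Left-out libraries moved the log2 fold change of Gad1 from -0.012 to 0.15, with -0.012 without MHFD replicate 3, and that of Pvalb from -1.65 to -0.47; without MHFD replicate 1 Pvalb had an unadjusted p of 0.00028 in edgeR's test, and 2 of the 4 genes instead of 1 were under 0.05. Left-out libraries gave from 818 to 2904 genes of the whole table at an unadjusted p under 0.05, against 1456: 2904 without MHFD replicate 1, 818 and 902 without MHFD replicates 2 and 3, and 875 without MND replicate 1. At an adjusted p under 0.05, edgeR's quasi-likelihood fit called 1 gene of the whole table, its likelihood-ratio fit 98, the Wald fit of DESeq2 198 and limma-voom 0 (beside 1424 at an unadjusted p under 0.05). Omitting MHFD replicate 1 raised this to 28 and omitting MND replicate 3 to 25, and omitting MHFD replicate 3 left 0. The cause was not tested.

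With the replicate number as a block, the log2 fold changes were 0.072 for Gad1, 0.48 for Gad2, 0.26 for Sst and -1.10 for Pvalb, and no call changed. The labels do not say whether same-numbered libraries shared anything beyond the number. The correlations of their deviations from the group means were -0.087, 0.0011 and -0.14, which cannot settle whether they shared a preparation. Over the left-out libraries and the counts divided by 4, the difference in log2 ratio of Gad2 to Gad1 ran from 0.31 to 0.52 and that of Pvalb to Sst from -1.73 to -0.97. The difference in log2 ratio of Sst to Gad1 ran from -0.034 to 0.34, and that of Pvalb to Gad1 from -1.76 (without MHFD replicate 1) to -0.63 (without MHFD replicate 3). With 3 animals per group, the intervals of Gad1, Sst and Pvalb include 0 and also changes in either direction.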
